A study of Bos taurus with 27 samples.

Results

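The proteasome genes of bovine blastocysts were described from 3′-end RNA sequencing. Of the 32637 genes in the deposited count table, 50 had a symbol starting with PSMA, PSMB, PSMC, PSMD, PSME, PSMF or PSMG followed by a digit, and all 50 were kept. They comprised 7 alpha ring and 7 beta ring genes, 1 alternative alpha subunit, 3 immunoproteasome subunits, 1 thymoproteasome subunit, 6 ATPases and 11 other subunits of the cap, 3 base and 4 core assembly chaperones, 4 activators and 1 inhibitor. The last 2, PSMC3IP and PSME3IP1, fitted the symbol rule but encode neither a subunit nor an assembly factor. After retention of genes with at least 1 CPM (counts scaled to a library total of 1000000) in 12 pools, 48 of the 50 remained among 12310 genes.

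Each of the 27 samples was a pool of 2 in vitro produced blastocysts of Bos taurus, all graded as expanding or expanded and of good quality. The oocytes had been matured with follicular fluid from preovulatory follicles of either greater or lesser maturity, and embryo culture was then the same. The labels gave a pool number but neither the follicle maturity group nor the fertilization replicate, and the study's supplementary list of groups is keyed to sample numbers other than the pool numbers and was not used here. The 27 pools were therefore treated as 1 set and no comparison between maturity groups was made. Levels are therefore given as the lowest, the median and the highest pool. Total counts ran from 10517606 to 44253564 per pool with a median of 22293594, and 3 counts were worth 0.0678 to 0.285 CPM. The labelled tissue was checked against markers. Summed trophectoderm markers (6 of 6 retained) were 15540 to 38740 CPM. Medians were 18610 CPM for KRT8, 7937 CPM for KRT18 and 3.62 CPM for CDX2. Summed epiblast markers (3 of 3) were 165 to 815 CPM, with medians of 399 CPM for POU5F1, 51.6 CPM for NANOG and 6.86 CPM for SOX2. Summed hypoblast markers (2 of 4) were 48.2 to 360.5 CPM, with medians of 211 CPM for GATA6 and 38.2 CPM for PDGFRA. GATA4 had a median of 0.8955 CPM, and SOX17 had no count in 14 pools. Each sum thus mostly follows its most abundant markers. Summed cumulus cell markers (3 of 6) were 3.16 to 32.8 CPM. A pool holds several cell types, so fewer cells of a type and less RNA per cell cannot be told apart.

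The proteasome degrades proteins tagged with ubiquitin. Its core particle is a barrel in which outer alpha rings gate the entrance and inner beta rings carry the proteolytic sites, contributed by PSMB5, PSMB6 and PSMB7. A cap of ATPases and non-ATPase subunits recognises, unfolds and feeds in the substrate. Cells of the immune system, and other cells exposed to interferon, can replace the catalytic subunits with PSMB8, PSMB9 and PSMB10, which changes the peptides made for display on MHC class I. In the embryo the proteasome is known for the removal of maternal proteins after fertilization.

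Proteasome transcripts were abundant and their summed level was steady. The 50 genes together made 13270 CPM in pool 14, 14560 CPM at the median and 17660 CPM in pool 9, and the highest pool exceeded the lowest 1.33-fold. The 14 constitutive core genes contributed 7923 to 11180 CPM (median 8941 CPM) and the 17 cap genes 3723 to 4901 CPM (median 4165 CPM). Summed cap level divided by summed core level was 0.421 to 0.535. A read of this assay marks the 3′ end of 1 transcript, so CPM was not divided by transcript length, and a ratio between genes also carries how well each 3′ end was captured. The plot of abundance by role shows that every core gene lay above 300 CPM in all pools, whereas the immunoproteasome subunits, PSMA8, PSMD3 and PSMD4 lay far lower.

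**Figure D1:**
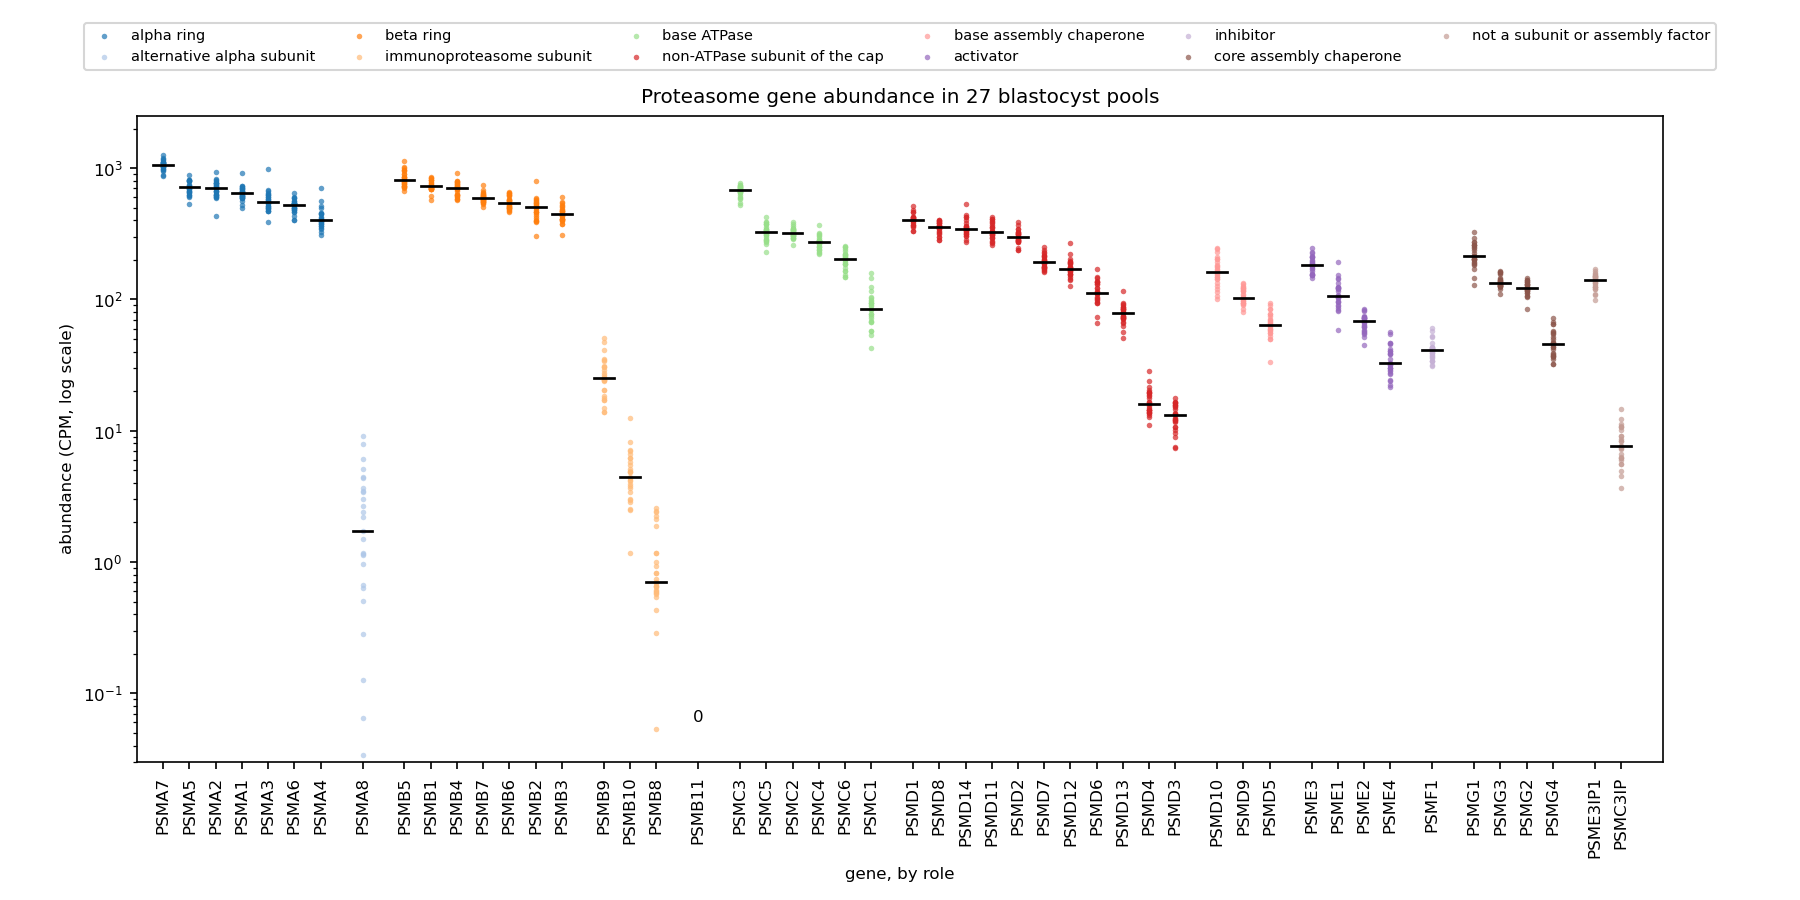
Abundance of the 50 proteasome genes, in CPM on a log scale, with 1 point per pool (27 pools), a black line at the median and colours for the role of the gene. PSMB11, with no count in any pool, is marked 0, and 1 pool with no PSMA8 count is not drawn. The core genes sit between medians of 400 and 1058 CPM, and PSMB8, PSMB9 and PSMB10 between 0.707 and 25.0 CPM.

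In the alpha ring, PSMA7 was the most abundant gene at 864 CPM in pool 14, 1058 CPM at the median and 1251 CPM in pool 22 (chromosome 13, 55054377 to 55059927). It exceeded PSMA5, the next in order, in 27 of 27 pools, by 1.17- to 2.08-fold. PSMA7 was also the highest of the 14 core genes in 26 pools, with PSMB5 the highest in the other. PSMA4 was the least abundant at 311 CPM in pool 31, 400 CPM at the median and 711 CPM in pool 9 (chromosome 21, 30920003 to 30927853). It was the lowest of the core in 17 pools, PSMB3 in 8 and PSMB2 in 2. Between these ends the order was less fixed. PSMA5 was above PSMA2 in 12 pools and below it in 15, and PSMA3 was above PSMA6 in 19.

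In the beta ring, the catalytic PSMB5, which cuts after hydrophobic residues, was the most abundant. Its level was 672 CPM in pool 38, 816 CPM at the median and 1123 CPM in pool 32 (chromosome 10, 21821507 to 21827026, overlapping PSMB11). PSMB6, which cuts after acidic residues, was at 465, 539 and 653 CPM (lowest, median, highest; chromosome 19, 26564855 to 26567068). PSMB7, which cuts after basic residues, was at 509, 595 and 749 CPM (chromosome 11, 95402190 to 95459424). PSMB5 exceeded both PSMB6 (median ratio 1.53) and PSMB7 (median ratio 1.35) in all 27 pools, while PSMB7 exceeded PSMB6 in 19. PSMB3, a structural subunit whose gene overlaps PCGF2 in the annotation, had the lowest median of the ring at 449 CPM (310 to 602 CPM).

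The immunoproteasome subunits were present at low level, and unequally. PSMB9 was at 13.8 CPM in pool 25, 25.0 CPM at the median and 51.2 CPM in pool 9 (chromosome 23, 7186453 to 7193346). PSMB10 was at 1.17, 4.405 and 12.6 CPM, lowest in pool 5 and highest in pool 9 (chromosome 18, 35417746 to 35422936, overlapping LCAT). PSMB8, which lies beside PSMB9 on chromosome 23 (7173032 to 7176410), was at 0.0534 CPM in pool 46, 0.707 CPM at the median and 2.57 CPM in pool 28. These PSMB8 values rest on 1 to 50 counts per pool, with 1 pool at or under 3 counts, and PSMB8 reached 1 CPM in only 9 pools, so it was not retained. The order PSMB9, PSMB10, PSMB8 held in 27 of 27 pools. Each was far below the constitutive subunit whose place it takes: the median ratio was 20.7 for PSMB6 to PSMB9 (10.3 to 38.6), 131 for PSMB7 to PSMB10 (59.5 to 481) and 1163 for PSMB5 to PSMB8.

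Taken as a share of all counts of these 6 catalytic genes, the immunoproteasome subunits made up 0.906% in pool 24 (95% Wilson interval 0.835% to 0.984%), 1.53% at the median and 3.09% in pool 33 (2.90% to 3.30%). Pool 9 was close to pool 33, at 2.95% (2.78% to 3.14%), and most of the share in every pool was PSMB9. These intervals cover counting error only. The thymoproteasome subunit PSMB11, which in mammals belongs to the thymic cortex, had 0 counts in all 27 pools. Depending on the pool, this allows at most 0.0678 to 0.285 CPM. PSMB11 overlaps PSMB5 in the annotation, and the strand setting is not given in the sources used here. Reads of the shared stretch may have gone uncounted, so this limit covers only the rest of the gene. PSMA8, the alternative alpha subunit of germ cells, had no count in pool 33, 1.73 CPM at the median and 9.11 CPM in pool 12 (chromosome 24, 30634656 to 30657373). Its 18 pools at or above 1 CPM and its ratio of upper to lower quartile, 5.45, made it the most variable of the retained proteasome genes. PSMA7 exceeded it by a median of 567-fold.

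Among the ATPases of the cap base, PSMC3 was the most abundant at 527, 676 and 770 CPM and exceeded PSMC5, the next, in 27 of 27 pools. PSMC1 was the least abundant at 42.8 CPM in pool 21, 84.9 CPM at the median and 158 CPM in pool 14, and lay under PSMC6 in all 27 pools. PSMC1 spread 3.68-fold from lowest to highest pool, while PSMC2, PSMC3, PSMC4, PSMC5 and PSMC6 spread 1.46- to 1.82-fold. Of the 11 non-ATPase subunits, the scaffold PSMD1 was highest at 330, 402 and 514 CPM, with its partner scaffold PSMD2 at 236, 297 and 386 CPM. PSMD14, the enzyme that removes ubiquitin from the substrate, was at 276, 344.5 and 536 CPM.

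PSMD3 and PSMD4 stood far below the other cap genes. PSMD3, a structural subunit, was at 7.36, 13.2 and 17.8 CPM (chromosome 19, 40310438 to 40323641). The ubiquitin receptor PSMD4 was at 11.1, 16 and 28.5 CPM (chromosome 3, 19556540 to 19565662). PSMD2 exceeded PSMD3 by a median of 22.7-fold and PSMD4 by 19.1-fold, in all 27 pools. As said above, such ratios also carry how well each 3′ end was captured, and that part was not tested. PSMD13 was at 50.4 CPM in pool 9, where most cap genes were high, and at 115 CPM in pool 31. It overlaps NBAS in the annotation, and the strand setting of the counting is not given in the sources used here, so reads of the 2 genes may not have been told apart.

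The chaperones that assemble the base were PSMD10 at 101, 161 and 247 CPM, PSMD9 at 79.6, 103 and 134 CPM and PSMD5 at 33.4, 64.3 and 93.5 CPM. PSMD10, also known as gankyrin, is the only proteasome gene of the set on the X chromosome (56712973 to 56722462). The core chaperones were PSMG1 at 130, 213 and 324 CPM, PSMG3 at 110, 134 and 164 CPM, PSMG2 at 84.9, 122.5 and 146 CPM and PSMG4 at 32.0, 45.9 and 72.6 CPM. PSMG1, the highest of the 4, was above PSMG3 in 26 of 27 pools, and PSMG4 was below its neighbour PSMG2 in all 27.

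Of the activators that can replace the cap, the nuclear PSME3 was highest at 146, 183 and 244.5 CPM. PSME4 was lowest at 21.5, 32.8 and 56.1 CPM. PSME1 and PSME2, which form 1 ring and are induced by interferon gamma, were at 58.7, 106 and 193 CPM and at 45.0, 67.9 and 85.1 CPM. Their ratio was 0.815 in pool 31, 1.65 at the median and 2.78 in pool 14, and PSME1 was the higher in 26 of 27 pools. The inhibitor PSMF1 was at 31.1, 41.1 and 60.2 CPM. PSME3IP1, a partner of PSME3, was at 98.4, 139 and 170 CPM and PSMC3IP, a meiotic recombination factor, at 3.67, 7.67 and 14.7 CPM.

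All 22 other genes of the pathway were retained. The polyubiquitin gene UBB was highest at 2850, 3657 and 4664 CPM, and the ubiquitin fusion gene RPS27A had a median of 1665 CPM. POMP, the core maturation factor, was at 465, 574 and 742 CPM, in the range of the core genes. SEM1, the smallest cap subunit, was at 115, 145 and 215 CPM. The ubiquitin receptor ADRM1 was at 83.2, 131 and 191 CPM. NFE2L1, the transcription factor known to raise proteasome genes when the enzyme is inhibited, was at 25.4, 39.2 and 65.5 CPM. The shuttle factor RAD23B had a median of 146 CPM.

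Pool-to-pool spread was small for most proteasome genes. The ratio of the upper to the lower quartile of CPM had a median of 1.20 over the 48 retained genes and 1.51 over all 12310 retained genes, and 44 of 48 were below that second value. Among the 1775 genes with a median CPM between the quartiles of the proteasome genes the median was 1.24, and 33 of 48 lay below it. The 48 include genes above and below that band, most core genes among those above. The count is therefore not matched for the abundance of each gene. PSMA7 (1.08), PSMD1 (1.09) and PSMC3 (1.09) varied least, and PSMA8 (5.45), PSMB10 (1.69) and PSMB9 (1.61) most.

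A few pools carried many of the extremes, as the map of relative abundance shows. Pool 9 had the highest value for 17 of 48 retained genes, among them PSMA1 to PSMA5, PSMB2, PSMB4, PSMB7, PSMB9, PSMB10, PSMD12 and PSMD14. Over all retained genes, 7.37% had their highest value there. Against its own median over pools, PSMA3 was 1.79-fold higher in pool 9, PSMA4 1.78-fold, PSMB9 2.04-fold and PSMB10 2.86-fold, while PSMB5 was at its median (1.00) and PSMD13 at 0.639 of it. The order of the 14 core genes also departed most from the order of the medians in pool 9 (Spearman rho 0.635, against a median of 0.925 over pools). The same pool had the highest summed interferon tau (597 CPM) and the highest summed leukocyte markers (99.3 CPM). It was also the lowest pool for GATA6 (19.5 CPM), GATA2 (18.7 CPM), TFAP2C (151 CPM) and SOX2 (2.82 CPM). For the other retained trophectoderm, epiblast and hypoblast markers the lowest pool was a different one. The part of these features in the proteasome values of pool 9 was not tested. Pool 31 had the lowest value for 11 of the 48 genes, among them PSMA2, PSMB2, PSMD5, PSMD6 and PSME1. That share is not far above the 17.9% of all retained genes lowest there, so nothing particular to proteasome genes is read from it. Pool 31 also had the fewest genes with any count (15491, against a median of 17507 over pools).

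**Figure D2:**
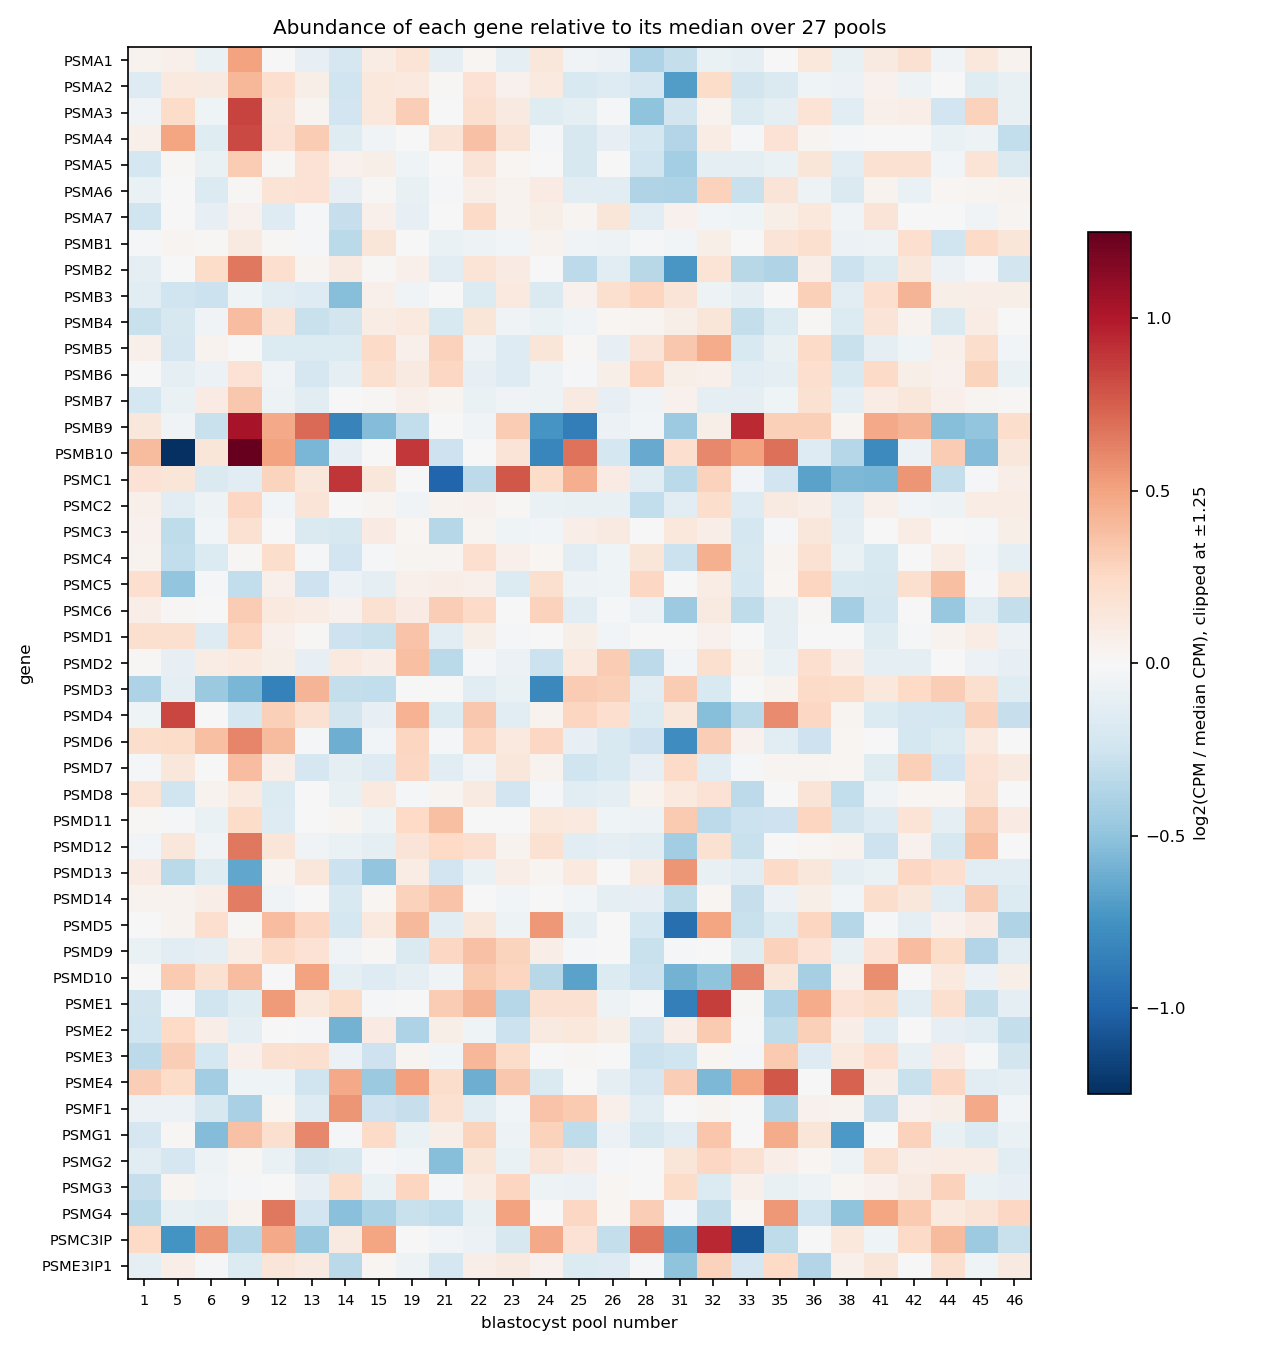
Each retained proteasome gene except PSMA8 (47 genes) against its own median, as log2(CPM / median CPM), in the 27 pools, with red above and blue below the median. Pool 9 is red for most alpha ring genes and for PSMB9 and PSMB10, and pool 31 is blue for PSMA2, PSMB2, PSMD5, PSMD6 and PSME1.

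Core genes tended to rise and fall together across pools. The median pairwise Spearman rho was 0.285 over the 91 pairs of the 14 core genes, of which 76 were above 0, and 0.0250 over all pairs of retained genes, of which 54.2% were above 0. These correlations are descriptions over 27 pools, which share their scaling. The core genes had medians of 400 to 1058 CPM, beside 14.4 CPM for the middle retained gene. Pairs of genes of like abundance were not compared, so the part of abundance in the difference was not tested. When libraries were scaled by the trimmed mean of M values (TMM) the core median rose to 0.468 and that of all pairs was -0.000611, and DESeq2 size factors gave 0.487 for the core. The alpha ring was the most coherent, with all 21 pairs above 0 and a median of 0.458 (0.560 with TMM). The beta ring had a median of 0.302 (0.519 with TMM). Pairs of cap genes had a median of 0.0986 (0.179 with TMM) and pairs of a core with a cap gene 0.132 (0.277 with TMM).

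The matrix of correlations shows that members did not divide by ring alone. PSMB2 of the beta ring varied with PSMA2 of the alpha ring (rho 0.732), and had a rho of -0.341 with PSMB3 of its own ring, which was -0.118 with TMM. PSMB3 varied with PSMB6 (rho 0.611). PSMA2 varied with the cap subunit PSMD6 (rho 0.724) and with the chaperone PSMD5 (rho 0.750). The closest of all pairs was PSMB5 with the cap subunit PSMD8 (rho 0.807), and the most opposed was PSMB5 with PSMD10 (rho -0.629). These pairs were picked from 1128 after their values had been seen, and no test is given for them. With TMM the positive pairs named here had rho from 0.709 to 0.872 and PSMB5 with PSMD10 had -0.521.

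**Figure D3:**
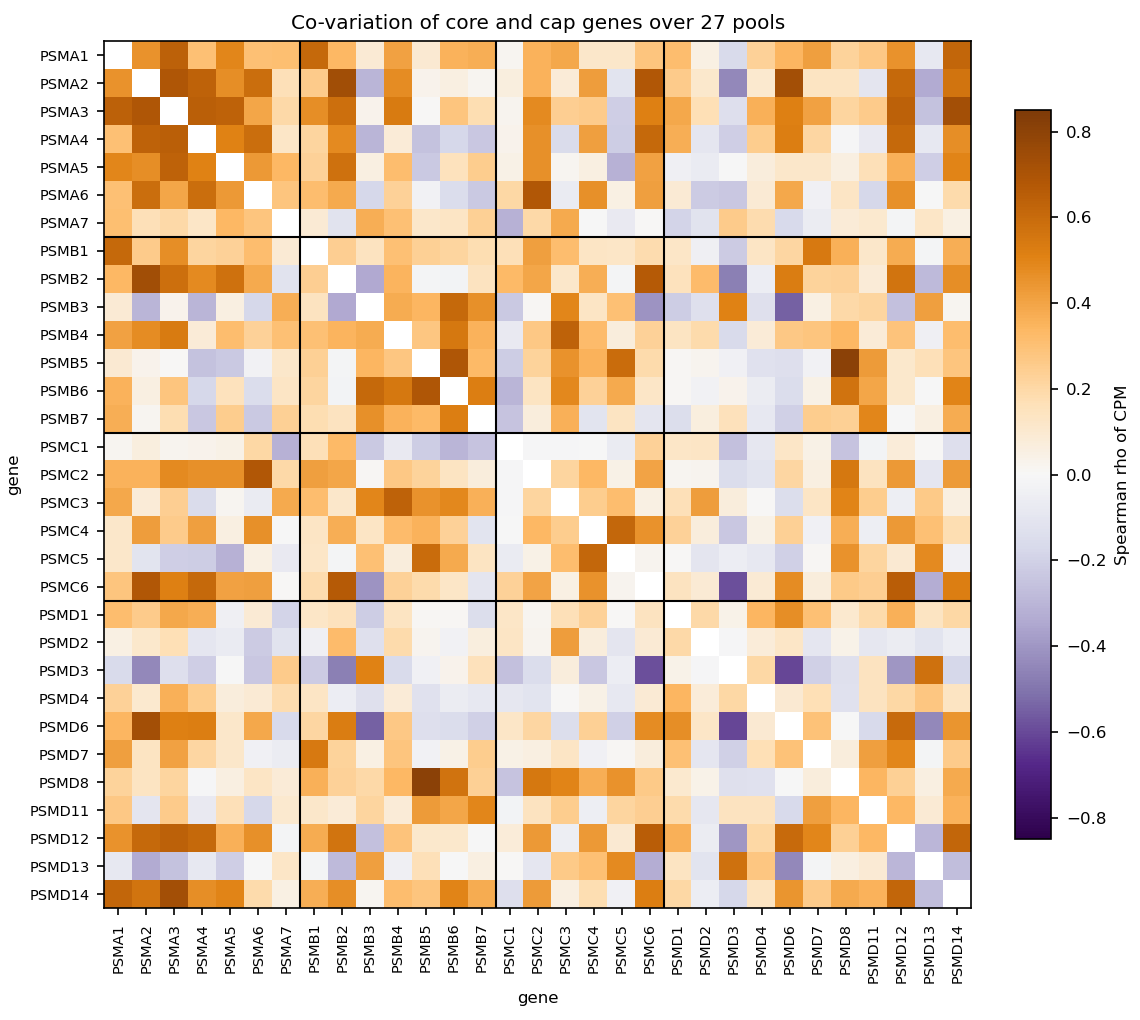
Spearman rho of CPM over 27 pools for each pair of the 14 core and 17 cap genes, with orange above and purple below 0. Black lines separate the alpha ring, the beta ring, the ATPases and the other cap subunits. The alpha ring block is orange throughout (21 of 21 pairs above 0), and the cap blocks are mixed (93 of 136 pairs above 0).

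Single relations between genes were tested for 23 pairs by a two-sided permutation test of Spearman's rho and Pearson's r of log2(CPM + 1), with 100000 permutations of the pools and Benjamini-Hochberg adjustment over the 23. Of them, 4 passed an adjusted p of 0.05 by rho and 6 an unadjusted one. Among the catalytic subunits, PSMB5 and PSMB6 varied together (rho 0.687, p = 0.00016, adjusted p = 0.00123, and r 0.646, permutation p = 0.00032). Without the 2 pools farthest from the median of PSMB5, r was 0.741. PSMB6 and PSMB7 also did (rho 0.521, permutation p = 0.00597, adjusted p = 0.0343, and r 0.502, p = 0.00725, or 0.575 without the 2 farthest pools). That call was lost without pool 9 (rho 0.4995, adjusted p = 0.0603). For PSMB5 and PSMB7, rho was 0.328 (permutation p = 0.0941, adjusted p = 0.237), but 0.579 with TMM (adjusted p = 0.00708).

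No pair of immunoproteasome subunits passed the test. For PSMB8 and PSMB9 rho was 0.0348 (permutation p = 0.864), for PSMB8 and PSMB10 0.322 (p = 0.103) and for PSMB9 and PSMB10 0.146 (p = 0.470). PSMB9 and TAP1, the peptide transporter encoded next to it, had a rho of 0.348 (permutation p = 0.0764, adjusted p = 0.237) and an r of 0.5002 (p = 0.00799, adjusted p = 0.0367). Without the 2 pools farthest from the median of PSMB9 that r fell to 0.267, so it rested on those pools. The interferon regulatory factor IRF1 did not pass with PSMB9 (rho 0.198, adjusted permutation p = 0.490). For PSME1 and PSME2, rho was 0.328 (permutation p = 0.0950, adjusted p = 0.237). For PSMA4 and NFE2L1, rho was -0.390 (p = 0.0447, adjusted p = 0.172).

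PSMB8 passed the test with a leukocyte gene. With PTPRC, which encodes the pan-leukocyte protein CD45, its rho was 0.719 (permutation p = 4e-05, adjusted p = 0.00092) and its r 0.676 (p = 6e-05), or 0.755 without the 2 pools farthest from the median of PSMB8. For PSMB9 and PTPRC, rho was 0.258 (permutation p = 0.193), and for PSMB10 and PTPRC 0.432 (p = 0.0255, adjusted p = 0.117). Whether the 3 relations differ from each other was not tested. PSMB8 fell into 21 pools at 0.0534 to 1.18 CPM and 6 pools at 1.88 to 2.57 CPM. Within the 21 pools rho with PTPRC was 0.621 (permutation p = 0.00327), and within the 6 it was -0.0286 (exact permutation p = 1.0). The cut was placed at a gap in PSMB8 itself after its values were seen. The 6 pools therefore span a narrow range of PSMB8, and their rho cannot show whether the relation holds among them. The 6 pools had 2.47 to 6.75 CPM of PTPRC and the 21 pools 1.01 to 5.27 CPM, so the 2 sets overlapped. Total counts were 10517606 to 22439236 in the 6 pools (median 14990000) and 13895833 to 44253564 in the 21 (median 26110000). Both genes had a negative rho with the total count, -0.365 for PSMB8 (permutation p = 0.0620) and -0.415 for PTPRC (p = 0.0324, neither adjusted). The partial rho of PSMB8 and PTPRC given the total count, computed after seeing these values, was 0.6695.

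**Figure D4:**
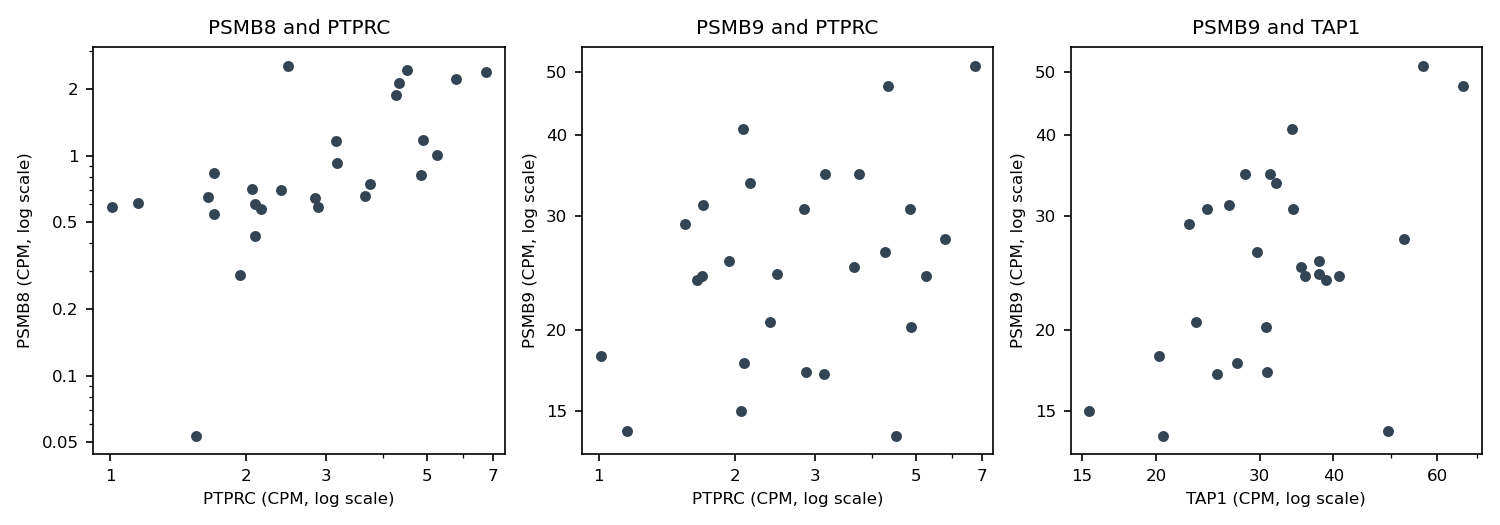
CPM of PSMB8 or PSMB9 against CPM of PTPRC or TAP1, both axes on log scales, with 1 point per pool (27 pools). PSMB8 rises with PTPRC (rho 0.719), PSMB9 and PTPRC are scattered (rho 0.258), and the 2 highest PSMB9 pools are also the 2 highest in TAP1.

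When PSMB8 was set against all 12310 retained genes, 28 (0.227%) passed an adjusted p of 0.05, 26 of them positively. The 5 with the highest rho were BCL2L15 (0.849), ARHGAP30 (0.830), CORO1A (0.803), LOC786352 (0.799) and BLA-DQB (0.793), each with p = 1e-05, the smallest that these permutations can give. CORO1A is a coronin of leukocytes and BLA-DQB an MHC class II chain. Chosen after their values were seen, the other positive genes included CD74 (0.764) and BOLA-DRA (0.729) of MHC class II, CD52 (0.766), SYK (0.714) and CTSS (0.703) of leukocytes, the haemoglobin gene HBB (0.777) and the interferon-induced IFIT3 (0.722). Of the negative ones, NUP214 had a rho of -0.681. Leukocyte markers as a list (6 of 9 retained) summed to 15.8, 36.1 and 99.3 CPM, with ITGAM (median 0.183 CPM) and CSF1R (0.449 CPM) near the floor, and CD14, CD68 and LCP1 were not among the genes called with PSMB8. The part of such cells or RNA in the PSMB8 values was not tested.

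The same search with PSMB9 called 3 of 12309 genes (0.0244%): LEPROTL1 (rho 0.807), FGD6 (0.761) and, negatively, MRI1 (-0.826). Next in order were LOC100174924 (0.743), ARID5B (0.719) and NDRG1 (0.712), at adjusted permutation p from 0.0528 to 0.0579. With PSMB10, 0 of 12309 (0.00%) passed the permutation test with Benjamini-Hochberg adjustment and 707 (5.74%) had an unadjusted p under 0.05. Its nearest genes included C23H6orf15 (rho 0.684), SIK1 (0.656), E2F4 (0.648) and APBA3 (0.642).

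Depth and interferon tau were examined over all retained genes. With the total count, 0 of 48 proteasome genes and 0 of 12310 genes (0.00%) passed the adjusted permutation test, and 1 proteasome gene, PSMD9 (rho 0.467), and 416 genes (3.38%) had an unadjusted p under 0.05. Interferon tau, the type I interferon by which the trophectoderm signals pregnancy in ruminants, was summed over 4 genes and ran from 7.21 CPM in pool 36 to 597 CPM in pool 9, with a median of 41.9 CPM. With this sum, 0 of 48 proteasome genes passed, beside 166 (1.35%) of all genes, 124 higher (1.01%) and 42 lower (0.341%), and 9 of 48 had an unadjusted p under 0.05 beside 15.4% of all genes. PSMB5 came closest (rho -0.545, permutation p = 0.00352, adjusted p = 0.105), and PSMD10 had a rho of 0.496 (p = 0.00952). PSMB9 had a rho of 0.263 (permutation p = 0.183) and PSMB10 of 0.294 (p = 0.137). None of the 14 retained interferon and antigen presentation genes passed either, MX1 being closest (rho 0.595, adjusted permutation p = 0.0677).

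PSMD10 was tested against XIST, the RNA that coats the inactive X chromosome, because of its place on the X. XIST ran from 0.0484 CPM in pool 15 to 35.4 CPM in pool 5, with a median of 11.5 CPM. PSMD10 was higher where XIST was higher (rho 0.689, permutation p = 0.0001, adjusted p = 0.00115, and r 0.632, p = 0.00041, or 0.655 without the 2 pools farthest from the median of PSMD10). The pools fell into separate sets by summed Y-linked transcripts, 9 pools at 0.430 to 1.65 CPM and 18 pools at 18.9 to 197 CPM. Their XIST levels overlapped (12.3 to 35.4 CPM in the 9, 0.0484 to 19.6 CPM in the 18), and so did PSMD10 (161 to 247 CPM and 101 to 211 CPM). Within the 18 pools rho was 0.451 (permutation p = 0.0622) and within the 9 pools 0.250 (exact permutation p = 0.521), so the relation did not pass the test within either set. Of the 20 genes whose pattern was nearest to PSMD10, 15 lie on the X chromosome, beside 3.62% of all retained genes, and the nearest was TSPAN6 (rho 0.857).

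When XIST was then set against every retained gene, 585 of 12309 (4.75%) passed an adjusted p of 0.05, 480 of them (3.90%) higher. Among the 585 were 192 of 445 on the X chromosome, all higher. Of the 48 proteasome genes 4 passed (8.33%), 2 higher (4.17%) and 2 lower (4.17%), beside 0.853% of all genes lower. With so few genes, nothing is read from these shares. Besides PSMD10 they were PSMB5 (rho -0.782, permutation p = 1e-05, adjusted p = 0.00209), PSME3 (rho 0.662, adjusted p = 0.0148) and PSMD8 (rho -0.567, adjusted p = 0.0489), all on autosomes. PSMB5, PSMD8 and PSMD10 also form the closest and the most opposed pair named above. PSMB6, which varied with PSMB5, had a rho of -0.519 with XIST (adjusted permutation p = 0.0845). The part of XIST in these pairs was not tested. With r of log2(CPM + 1) the values were -0.763 for PSMB5 (permutation p = 1e-05), 0.627 for PSME3 (p = 0.00058) and -0.549 for PSMD8 (p = 0.00324), and PSMD8 then missed the adjusted threshold (0.0584). Without the 2 pools farthest from the median of XIST, r was -0.722, 0.621 and -0.545. Of the 22 other pathway genes, SEM1 (rho 0.627, adjusted permutation p = 0.0250) and the X-linked ubiquitin-activating enzyme UBA1 (rho 0.632, adjusted p = 0.0243) passed.

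Of these 4, PSMB5 passed an unadjusted test within 1 of the sets. In the 18 pools with high Y-linked levels its rho was -0.585 (permutation p = 0.0123), and in the 9 others -0.233 (exact permutation p = 0.552). PSMB5 ran from 724 to 1123 CPM in the 18 pools and from 672 to 780 CPM in the 9. For PSME3 rho within the sets was 0.393 (permutation p = 0.108) and -0.0167 (exact permutation p = 0.982), with 146 to 197 CPM in the 18 pools and 181 to 244.5 CPM in the 9. For PSMD8 it was -0.152 (permutation p = 0.546) and -0.567 (exact permutation p = 0.121), with 322 to 405 CPM and 283 to 384 CPM.

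**Figure D5:**
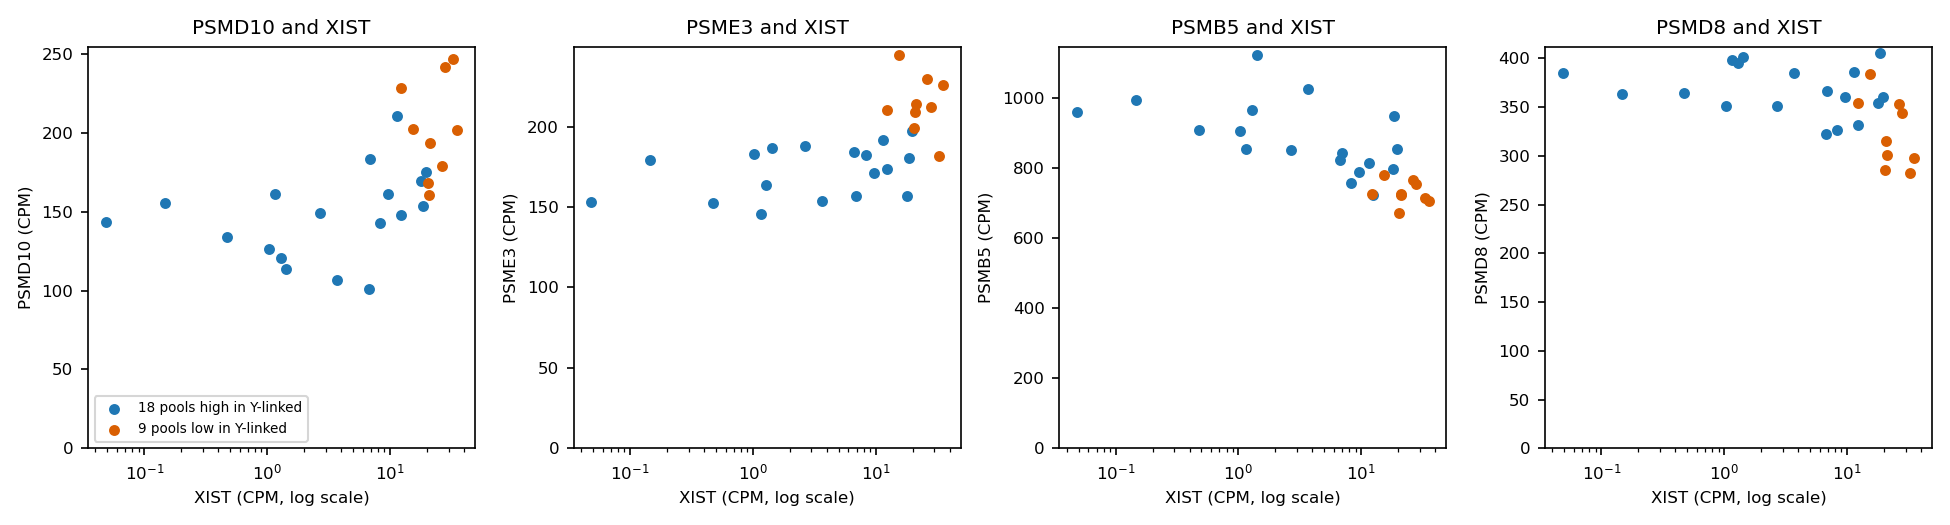
CPM of PSMD10, PSME3, PSMB5 and PSMD8 against XIST (CPM, log scale), with 1 point per pool, blue for the 18 pools with high and orange for the 9 with low Y-linked levels. The orange pools lie at 12.3 CPM of XIST or more, toward higher PSMD10 and PSME3 and lower PSMB5 and PSMD8, with overlap between the colours in every panel.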

How the data were processed

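Total RNA of 27 pools of 2 blastocysts was reverse transcribed from the 3′ end and sequenced. Per the labels and the methods, the authors trimmed reads with fastp, aligned them with STAR to ARS-UCD2.0 and counted genes with featureCounts. Tool versions, annotation release and strand setting are not given in the sources used here. The deposited values are raw counts per gene, not normalized, for 32637 genes. No label assigns a pool to a follicle maturity group or replicate. The study's supplementary list of groups, keyed to other sample numbers, was not used here, since order or totals alone would have linked it to the pools. All pools formed 1 set.

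CPM was computed from column totals, and a gene was kept when 12 or more pools had 1 CPM of it, a filter taken from the study's methods. Correlations used numpy 2.4.6, two-sided permutation tests (100000 permutations, pseudocount 1 for Pearson's r, full enumeration under 10 pools) and Benjamini-Hochberg adjustment. With a smallest p of 1e-05, at least 3 of 12310 genes had to pass together before any could be called. Alternatives were TMM (edgeR 4.0.16), DESeq2 1.42.0 size factors, other filters and pools left out. Only the search of all retained genes against 1 measure was tested on simulated counts, with genes drawn independently. There, 200 of 12310 genes followed a known axis, all 200 were recovered and 11 other genes were called falsely. The other calculations were not tested in this way. How weak a relation the search could still find in the 27 pools was not tested. Symbols were placed with the RefSeq gene table of ARS-UCD2.0. Sequences were not used here.

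The genes named were the catalytic, alternative, activator, inhibitor and chaperone genes, the highest and lowest of each group, the 3 most and 3 least variable, the 5 genes nearest to each immunoproteasome subunit, and genes said to be chosen after their values were seen. A few genes that this rule selects are not reported here. PSMD2 and PSMD14, pathway genes and pools were added in the same way. The proteasome genes, the gene lists and the tests were chosen with earlier results of these data known, and so were the markers. Per the methods, 1 bull sired all embryos and the blastocysts came from 4 fertilization replicates. Which pools shared a replicate was not analysed here. The permutation tests treat the 27 pools as exchangeable. Shared replicates or follicle maturity groups may break that assumption, and the p-values may then be too small.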

Additional observations from a re-analysis of the deposited data

How the results depend on the processing

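The 48 retained genes numbered 48 or 49 under every filter tried, and the median summed level (14500 to 14610 CPM) and immunoproteasome share (1.51% to 1.78%) moved by less than the spread between pools. The quartile ratio was 1.21 with TMM, 1.217 with DESeq2 size factors and 1.196 without pool 9. Scaling mattered most for the co-variation of the core genes: median rho was 0.468 with TMM, 0.487 with DESeq2 size factors, 0.305 by Pearson's r with either pseudocount (0.3054 and 0.3053), 0.262 without the pool of lowest total count and 0.244 without pool 9. The cause was not tested. Of the 23 tested pairs, 3 to 5 were called under each alternative. PSMB5 with PSMB7 was added under TMM and DESeq2 size factors, PSMB9 with TAP1 under Pearson's r, and PSMB10 with PTPRC without 2 pools (rho 0.520, adjusted permutation p = 0.0396).

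Signs turned only for relations that were not called, and for 2 within sets of pools. PSMB8 with PSMB9 was -0.0537 without pool 9, and PSMB9 with PSMB10 -0.0308 without the 2 farthest pools. PSME1 with PSMB9 was 0.0340 by Pearson's r and 0.0345 without pool 9, and PSME2 with PSMB9 0.0270 by Pearson's r. PSMB5 with POMP was 0.150 with TMM and 0.155 with DESeq2 size factors. PSMB8 with PTPRC was -0.0286 within 6 pools, and PSME3 with XIST -0.0167 within 9 pools. Leaving out each pool in turn kept rho of the 4 called pairs at 0.653 to 0.753, 0.473 to 0.568, 0.694 to 0.768 and 0.655 to 0.709. The search with XIST called 3 to 5 proteasome genes, with PSMC5 added by TMM. Leaving out pools 9 and 31, the search with XIST and the splits into sets of pools were chosen after seeing the data. Depth limits PSMB8, PSMA8 and PSMB11, where 3 counts are worth up to 0.285 CPM. No paired analysis was possible because the labels give neither groups nor replicates by pool.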

Other observations

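Ribosomal protein genes, 79 of them and chosen after values had been seen, offered a second large assembly for comparison. The median Spearman rho with these 79 genes was 0.448 for PSMB3, 0.437 for PSMB6, 0.358 for PSMC3, 0.333 for PSMB5 and 0.315 for PSMA7, and -0.287 for PSMD6, the lowest of the 48 retained proteasome genes. Over these 48 the median was 0.0931, and 14 of them were under 0. Over all 12310 retained genes the corresponding median was -0.0635. A ribosomal protein gene was the nearest gene in pattern to 5 of 48 proteasome genes (10.4%) and to 132 of the 12310 (1.07%, ribosomal protein genes included), and another proteasome gene was the nearest to 2 of 48. These are descriptions over pools that share their scaling, genes of like abundance were not compared, and no test was made.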
